A study of Drosophila melanogaster with 2 samples.

Results

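Corto is a chromodomain protein of Drosophila melanogaster whose gene belongs to the Enhancers of Trithorax and Polycomb, a class of genes whose mutations modify both the group that keeps homeotic genes active and the group that keeps them silent. In flies much of the regulatory DNA of a gene lies close to its transcription start site (TSS), upstream of it or in the first intron, where enhancers and further start sites are often found. Here the binding sites of Corto that lie beside promoters but outside them were examined. They were mapped by ChIP-seq, which sequences the chromatin fragments that an antibody pulls down with a protein. Of 2644 summits (the base of highest signal in each peak) in the optimal peak set, 571 (21.6%) lay more than 500 and at most 2000 bp from the nearest TSS of a protein-coding gene, on either side, and these are called flanking summits. The other summits were 1156 promoter summits, at most 500 bp from a TSS, and 917 distal summits, more than 2000 bp away.

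The embryos came from a transgenic line that stably carried a GFP-tagged Corto, with the tag at its C terminus, and the precipitation used an antibody against GFP. The material was whole embryos of both sexes, pooled, collected over 0 to 24 h, in 2 biological replicates that form 1 group, and there was no second genotype, stage or treatment. The values describe the tagged protein in a mixture of all embryonic cell types and stages, so a site used in a few cells cannot be told apart from a weak site used in many. Matched control libraries entered the authors' peak calling and were not analysed here. Peak signal is the authors' value in the deposited lists. The sources used here do not state its scale, no read counts were used and depth is unknown, so signal serves only to describe and rank sites within a list. All p-values below measure spread over summits that share the same 2 libraries, and the 95% Wilson intervals cover counting error only.

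The sequences of 8 strong flanking summits are shown as examples, marked for the 3 motifs whose shares differed between summits and flanks, described below. Flank sequences are not shown, so that difference cannot be read here. The 8 summits were the strongest whose window of 50 bases on either side overlapped no annotated exon, leaving out 1 arm. On dm6, plus strand, they lie at chr2L:480993-481093 (cbt), chr3R:11761016-11761116 (Lk6), chrX:4910330-4910430 (CG32772), chr3L:14759479-14759579 (Trl), chr2L:3302350-3302450 (CG9663), chrX:19668553-19668653 (Zw), chr2L:8534826-8534926 (CG17834) and chr3L:3246445-3246545 (CG43389). The first 7 are intronic and the last is intergenic. The summit is the middle base. Capitals mark TATAAA and GCCAT on either strand, and the A tract AAAAAA likewise. Matches are descriptions of letters and not binding sites.
cbt: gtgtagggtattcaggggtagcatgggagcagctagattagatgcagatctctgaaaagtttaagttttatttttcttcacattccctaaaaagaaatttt
Lk6: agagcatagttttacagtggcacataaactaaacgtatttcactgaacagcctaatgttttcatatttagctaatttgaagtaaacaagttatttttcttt
CG32772: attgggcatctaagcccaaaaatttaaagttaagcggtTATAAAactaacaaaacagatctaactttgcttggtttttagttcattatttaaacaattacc
Trl: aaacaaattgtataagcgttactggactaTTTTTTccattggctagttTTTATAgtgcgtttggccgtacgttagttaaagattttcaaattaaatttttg
CG9663: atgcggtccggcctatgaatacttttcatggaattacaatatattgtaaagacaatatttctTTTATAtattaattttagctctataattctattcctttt
Zw: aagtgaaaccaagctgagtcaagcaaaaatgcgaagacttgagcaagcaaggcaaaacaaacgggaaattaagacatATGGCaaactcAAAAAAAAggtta
CG17834: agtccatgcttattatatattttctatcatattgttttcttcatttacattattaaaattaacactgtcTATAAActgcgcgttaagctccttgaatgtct
CG43389: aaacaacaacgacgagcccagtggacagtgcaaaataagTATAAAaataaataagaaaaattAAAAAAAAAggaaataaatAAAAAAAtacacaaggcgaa
GC content ran from 25.7% in the CG9663 window to 37.6% in the Zw window. The CG43389 window held the longest run of A or T, at 9 bases, and also held a TATA box core. That core, on either strand, stood in the windows of CG32772, Trl, CG9663, CG17834 and CG43389, and the windows of cbt and Lk6 held none of the 3 motifs. The only GCCAT among them, on the minus strand, was in the Zw window.

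The strongest flanking summit was also the strongest of the whole set. It lay at chr2L:6612677 in an intron of CG11050 only 140 bp long, the shortest among the flanking summits, 990 bp downstream of its TSS, with a signal of 1209 in the optimal set, 593 in replicate 1 and 668 in replicate 2. Second in the set was a summit at chr2L:481043, 1355 bp upstream of cbt, which encodes the zinc finger protein Cabut, and inside an intron of ush, which encodes a cofactor of GATA factors. It had signals of 846 in the optimal set, 442 in replicate 1 and 421 in replicate 2. The kinase gene Lk6, whose product phosphorylates the cap-binding protein eIF4E, held the next flanking summit, which had rank 4 in the set. This summit lay at chr3R:11761066, 987 bp upstream of the nearest Lk6 TSS and in a first intron of a longer transcript. Its signals were 724, 366 and 350.1 in the same order of lists. Among flanking summits CG32772 followed, with rank 15 in the set, at chrX:4910380 with 563, 276 and 293. Trl, which encodes the GAGA factor, had its stronger flanking summit at chr3L:14759529, 1520 bp downstream of the nearest TSS, with 493, 257 and 219. In each of these 5 sites both replicates held a summit within 72 bp of the set's summit, and both replicate signals were far above the flanking medians of 54.7 in replicate 1 and 61.4 in replicate 2.

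Below these came CG9663 (415 in the optimal set), CG43389 with a coding summit (415) and a separate intergenic one (371), Zw (399), CG17834 (397), HmgZ (389), for (354), mub (351), CG9837 (346), Diap1 (346), crb (339), Fem-1 (334), CG42327 (323), COX7AL2 (318) and Myo61F (313). Zw encodes glucose-6-phosphate dehydrogenase, the entry enzyme of the pentose phosphate pathway, and its intronic summit had 189.5 in replicate 1 and 216 in replicate 2. Pgd, the next oxidative enzyme of that pathway, was noticed after its values were seen. Its stronger intronic summit, 774 bp downstream, had a signal of 137 in the optimal set, 60.5 in replicate 1 and 72.0 in replicate 2. HmgZ encodes an HMG-box chromatin protein, and its summit 558 bp upstream lay also within the neighbouring HmgD. The product of for is a cGMP-dependent protein kinase, mub encodes an RNA-binding protein with KH domains, Diap1 inhibits caspases, crb encodes an apical membrane protein of epithelia and Myo61F a class I myosin. Of the 100 strongest summits of the set, 21 were flanking, near the 21.6% that flanking summits made of the set.

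Flanking summits were spread over the zone but thinned with distance. The zone itself, all positions more than 500 and at most 2000 bp from a TSS, spans 28.9 Mb or 21.6% of the 6 arms, so its share of summits was close to its share of sequence. Its density was 19.8 summits per Mb, against 75.4 within 500 bp of a TSS and 14.7 between 2000 and 3000 bp. In steps of 250 bp outward the densities on both sides together were 22.2, 24.6, 18.6, 15.3, 18.9 and 16.4 per Mb. On the upstream side the zone held 22.1 per Mb, against 137 within 500 bp, and on the downstream side 18.3 per Mb, against 25.2. Distance defined the set, so these densities are a description. At the inner edge, Alp12 at 502 bp and aru at 504 bp had signals of 85.7 and 219, and just outside it E(spl)mbeta-HLH at 496 bp and 14-3-3zeta at 498 bp had 91.6 and 92.7. At the outer edge, COX7C and Shrm, both at 1998 bp, had 114 and 139, and just beyond it CG43138 at 2009 bp and CG43658 at 2012 bp had 149.996 and 114.7.

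**Figure D1:**
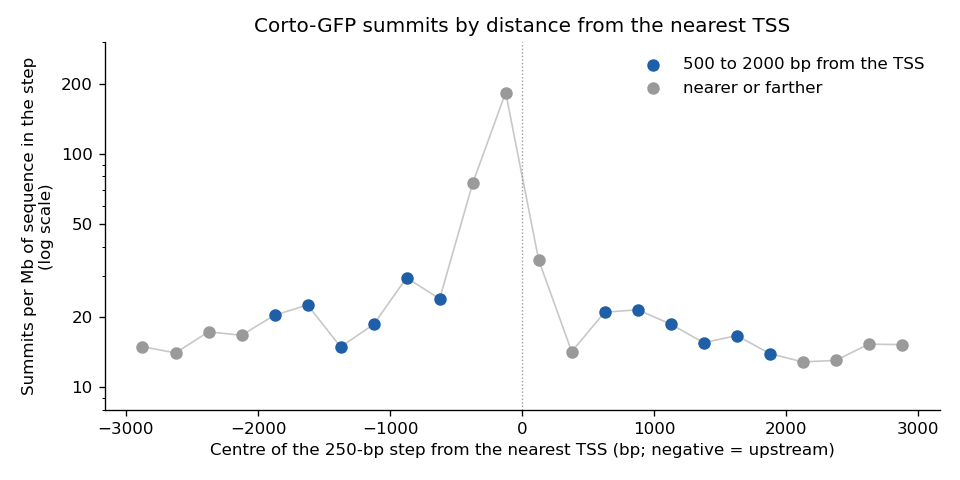
Summits per Mb of sequence (log axis) in steps of 250 bp from the nearest protein-coding TSS, with negative positions upstream. The flanking steps (blue) lie between 13.96 and 29.5 per Mb, far below the step just upstream of the TSS at 183 per Mb.

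The strong upstream bias of promoter summits was not seen farther out. Of the flanking summits 246 (43.1%, interval 39.1 to 47.2%) were upstream and 325 downstream, against 943 of 1155 promoter summits upstream (81.6%), a difference of -38.6 percentage points (two-sided Fisher's exact test, adjusted p = 8.67e-57, Benjamini-Hochberg over 16 tests). Distal summits were upstream in 38.2%, a difference of 4.91 points that missed the threshold (exact test, adjusted p = 0.172). Of all positions in the zone 38.5% were upstream. Within 500 bp of a TSS 6.90 Mb lay upstream and 8.42 Mb downstream. Distance from a TSS defined the classes, and the tests do not allow for such differences in sequence. Being upstream of the nearest TSS did not mean being outside genes: 139 of the 246 upstream summits (56.5%) lay inside a protein-coding gene, and 100 of them inside the nearest gene itself, which has a further TSS beyond the summit. Downstream, 303 of 325 (93.2%) lay inside the nearest gene.

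Introns held most flanking summits and coding sequence almost none. Introns or non-coding exons held 415 summits (72.7%, interval 68.9 to 76.2%), against 37.6% of zone positions, and coding sequence held 3 (0.525%, interval 0.179 to 1.53%), against 32.6% of zone positions. Another 111 (19.4%) were intergenic, against 19.2% of the zone. 5′ UTRs held 29 (5.08%, against 2.37% of the zone) and 3′ UTRs 13 (2.28%, against 8.22%). Zone shares are given as a description with no test. Base composition, given below, also differed between windows with and without exons, and its part in these shares was not tested. The 3 coding summits were in CG43389 (415), CG12054 (102) and CG3919 (83.5). The strongest summit in a 5′ UTR was in cic, which encodes the HMG-box repressor Capicua, at chr3R:20253350 with a signal of 248 in the optimal set, 131 in replicate 1 and 116 in replicate 2.

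Distal summits had a like share in introns or non-coding exons, 653 of 917 (71.2%), and the difference of 1.47 points missed the threshold (exact test, adjusted p = 0.712). The intergenic share was 19.4% of flanking summits and 27.04% of distal summits, a difference of -7.61 points (Fisher's exact test, adjusted p = 0.00755). Place depends on the distance from a TSS that defined the classes: 19.2% of zone positions and 35.4% of positions beyond 2000 bp were intergenic, so the difference is no result about flanking summits. Under the exact test that call was lost when the TSSs of all annotated genes set the classes (-2.30 points, adjusted p = 0.548), in a zone of 750 to 2000 bp (-5.80 points, adjusted p = 0.0898) and among the stronger part of the set (-8.63 points, adjusted p = 0.0507). No distal summit of 917 was coding, which allows a share of up to 0.327% by the limit of 3 counts (upper Wilson limit 0.417%), against 10.3% of positions beyond 2000 bp.

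**Figure D2:**
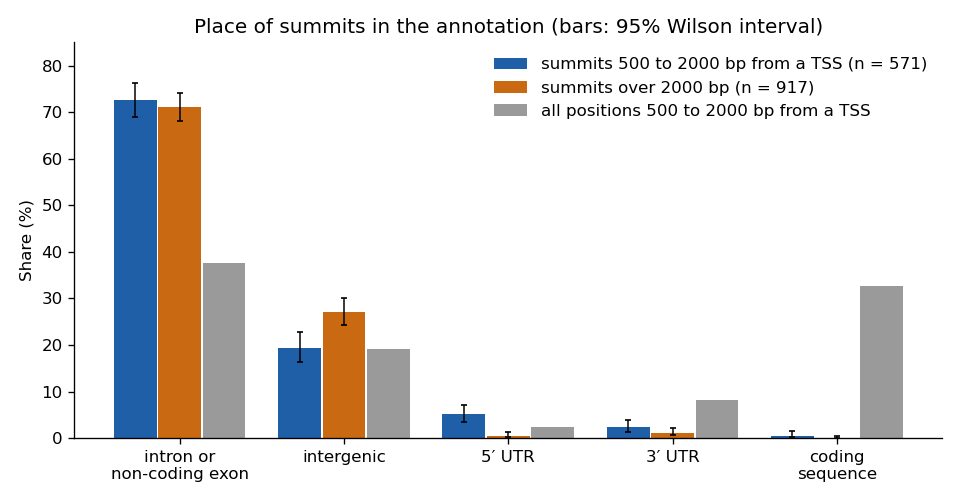
Share of flanking summits (blue), distal summits (orange) and all zone positions (grey) in each annotated place, with 95% Wilson intervals for summits. Flanking summits reach 72.7% in introns or non-coding exons and 0.525% in coding sequence, where zone positions stand at 37.6% and 32.6%.

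First introns, which in flies often carry enhancers, took 367 of the 571 flanking summits (64.3%, interval 60.3 to 68.1%), against 26.4% of zone positions. Among the 325 downstream summits 263 (80.9%) were in a first intron, and among the 246 upstream summits 104 (42.3%). Distance from a TSS and lying in a first intron depend on each other, so the shares of 30.9% among promoter summits and 39.1% among distal summits are given without a test. The longest intron around each of the 422 summits that lay in an intron had a median of 6850 bp. The quartiles were 2820 and 13731 bp, and the largest was 103624 bp. Long introns hold more positions, and intron lengths at zone positions or other summits were not compared.

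Signal did not set flanking summits apart. Their signals in the optimal set ran from 81.2 to 1209 with a median of 112 and quartiles of 91.7 and 151, against a median of 114.9 at promoter summits and 110.4 at distal summits. The share above the median of the set was 48.9%, against 52.3% at promoter summits (Fisher's exact test, adjusted p = 0.367) and 47.8% at distal summits (exact test, adjusted p = 0.810). Within the zone, distance from the TSS and signal had a Spearman rho of -0.03 over 571 summits, a description only. Medians by place were also close, from 102 over the 3 coding summits to 122 over the 13 in 3′ UTRs. By arm they ran from 101.4 over 97 summits on 2R to 120.01 over 118 on 2L, the single summit on chromosome 4 (95.8) left aside.

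Both replicates held a summit within 200 bp of 553 flanking summits (96.8%), against 95.2% of promoter summits (exact test, adjusted p = 0.293) and 97.8% of distal summits (exact test, adjusted p = 0.552). The optimal set was made from these replicates, so a high match is in part built in. Ranking was less alike, in the other classes as well. Among the strongest 2644 entries of both replicate lists stood 305 flanking summits (53.4%). Promoter summits had 55.2% there (exact test, adjusted p = 0.712) and distal summits 52.6% (exact test, adjusted p = 0.831). The replicate signals had a Spearman rho of 0.41 over the 553 matched flanking summits, against 0.48 at promoter and 0.41 at distal summits. One replicate summit can match more than 1 flanking summit. Replicate 1 had the higher signal at 227 of the 553 (41.0%), against 49.95% of promoter summits and 42.4% of distal summits, a difference that was not tested. The difference between replicates was large at single genes: wit had 153 in replicate 1 and 47.2 in replicate 2, and the summit upstream of corto itself had 23.3 in replicate 1 and 74.8 in replicate 2. For 18 flanking summits at least 1 replicate had no summit within 200 bp, led by tsr at chr2R:24045338 (198 in the optimal set), which encodes the actin-severing protein cofilin. Its nearest summit in replicate 2 was 929 bp away.

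**Figure D3:**
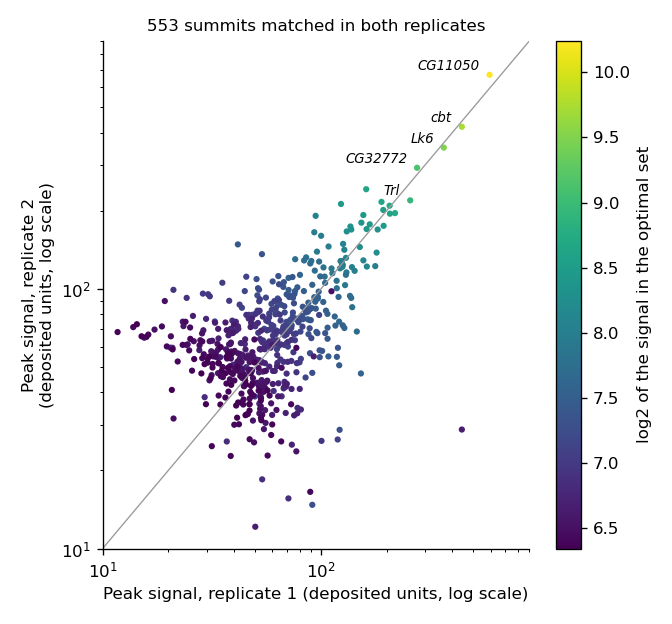
Peak signal in replicate 1 and replicate 2 (deposited units, log axes) of the 553 flanking summits matched in both, coloured by log2 signal in the optimal set. The strongest sites (CG11050, cbt, Lk6, CG32772 and Trl) lie near the diagonal, and weaker sites scatter widely.

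Many flanking summits had a neighbour. Another summit of the set lay within 2000 bp of 224 (39.2%), against 33.8% of distal summits, a difference of 5.42 points (Fisher's exact test, adjusted p = 0.112). In the strongest peaks of replicate 2 alone the difference was 6.42 points (exact test, adjusted p = 0.0450) and in those of replicate 1 alone 10.7 points (exact test, adjusted p = 0.000490). For neighbours within 1000 bp it was 0.64 points (exact test, adjusted p = 0.831) and within 5000 bp 0.14 points (exact test, adjusted p = 1). The classes build in part of the difference at 2000 bp, since a distal summit can have a promoter summit so near only when the 2 lie more than 1500 bp apart, so none of these values is a result about flanking summits. The nearest neighbour within that distance was a promoter summit for 117, another flanking summit for 76 and a distal summit for 31. For 211 flanking summits (37.0%) the nearest gene also had a promoter summit, a share of 41.4% for those in introns or non-coding exons and 22.5% for intergenic ones. The closest spacing was 199 bp, at the edge of what peaks 400 bp wide can resolve, and 495 of the 571 peaks had exactly that width.

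The 571 summits belonged to 504 nearest genes, of which 443 had 1 flanking summit, 47 had 2, 10 had 3, 2 had 4 and 2 had 5. CHES-1-like, which encodes a forkhead transcription factor, had 5 within 8525 bp of the X (chrX:7698390 to 7706915), all in its first introns. Their signals were 308, 211, 188, 149.5 and 114 in the optimal set, 131, 146, 126, 90.4 and 29.3 in replicate 1, and 167, 68.5, 72.4, 64.6 and 38.3 in replicate 2. The order of these sites thus differed between replicates, with 1 weakest site in both. The strongest in the optimal set, at chrX:7703171, was the only 1 of the 571 flanking summits in an annotated transposable element. How reads matching several copies were treated is not stated in the sources used here. Another forkhead gene, jumu, had 3 within 728 bp of its first intron, at 135, 133 and 87.4. The zinc finger gene shn, whose product acts with Smads in Dpp signalling, had 5 over 19092 bp, at 111 to 171. CG43389 had 4 within 2500 bp (104 to 415), on both sides of its TSS, and lola, which encodes a large family of BTB zinc finger isoforms, had 4 (82.2 to 129).

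Those with 3 were cbt, COX7AL2, fru, Tlk, mlt, jumu, loco, Oda, CG43658 and bun. In fru, another BTB zinc finger gene and a regulator of sexual behaviour, 2 strong sites lay 204 bp apart, with 251 and 187 in the optimal set, 122 and 103 in replicate 1, and 120.04 and 89.1 in replicate 2. Both replicates gave the same order. Tlk encodes a kinase that acts on chromatin assembly, loco a regulator of G-protein signalling, Oda the antizyme of ornithine decarboxylase and bun a protein of the TSC-22 family. The 3 summits of mlt all lay upstream of it, inside an intron of the potassium channel gene KCNQ, and spanned only 523 bp. For that at chr2R:10159718 the nearest summit in replicate 2 was 265 bp away. For that at chr2R:10159991 the nearest in replicate 1 was 242 bp away. Both thus lacked a match within 200 bp, and whether the 3 are separate sites was not tested.

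Some flanking summits lay near the start of a non-coding gene. Within 500 bp of an annotated non-coding start lay 37 (6.48%), against 3.31% of zone positions, 5.45% of promoter summits (exact test, adjusted p = 0.613) and 5.78% of distal summits (exact test, adjusted p = 0.712). At 1000 bp the difference from promoter summits was 4.31 points (exact test, adjusted p = 0.0311), and at 250 bp it was -0.48 points. All 37 starts belonged to genes annotated as ncRNA, and none to a tRNA. The closest pairs included kis with lncRNA:CR44222 at 16 bp and Npc2a with lncRNA:CR42874 at 24 bp. At Act5C, which encodes a cytoplasmic actin, the summit at chrX:5900142, 719 bp upstream, lay 153 bp from the start of lncRNA:CR45668 and had a signal of 239 in the optimal set, 95.95 in replicate 1 and 139 in replicate 2. By arm, 107 of 570 flanking summits on the 5 large arms (18.8%) were on X, against 14.8% of the other summits, which missed the threshold (exact test, adjusted p = 0.0899), and 18.0% of zone positions. In the strongest peaks of replicate 1 alone the X share differed by 4.80 points (exact test, adjusted p = 0.0199) and in those of replicate 2 alone by 2.06 points (exact test, adjusted p = 0.386).

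Flanking summits sat in short AT-rich dips. The mean GC content of the bases within 50 bp was 35.2% at the summit, 43.8% at 200 bp towards the TSS and 43.4% at 200 bp away from it. In windows of 100 bp on either side the median was 36.3%, against 43.8% in zone windows. Much of that gap goes with exons, since zone windows outside exons had 39.8% and the 485 flanking windows outside exons 36.3%. Promoter summits had a median of 35.3% and distal summits 36.3%. The flanking share above the median of all summits was 53.2%, against 46.4% at promoter summits, a difference of 6.87 points (Fisher's exact test, adjusted p = 0.0415), but that call was lost in each of 7 alternatives, where the difference ran from 4.28 to 7.37 points. Against distal summits (52.6%) the adjusted exact p was 0.831.

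Of 17 short motifs searched on both strands within 100 bp of each summit and in a window of the same length 1000 bp farther from the TSS, 3 passed the exact McNemar test over 571 pairs. The A tract AAAAAA was in 51.7% of summit windows and 32.7% of flank windows (exact test, adjusted p = 3.51e-09), against 27.04% of zone windows. The TATA box core TATAAA was in 34.0% of summit windows and 24.2% of flank windows (exact test, adjusted p = 0.00215), against 20.2% of zone windows. GCCAT, the core bound by the Polycomb-group protein Pleiohomeotic, was less frequent at summits, at 25.2% against 33.1% of flank windows (exact test, adjusted p = 0.0245) and 36.0% of zone windows. Outside exons, zone windows held AAAAAA in 37.6%, TATAAA in 26.02% and GCCAT in 34.4%. The 485 flanking windows outside exons held them in 50.9%, 32.8% and 23.3%, and these gaps were not tested. Promoter summits held the 3 motifs in 46.6%, 38.3% and 24.9% of windows, and distal summits in 49.3%, 32.4% and 25.5%. AAAAAA and TATAAA consist of A and T alone, and in the 207 pairs matched on GC content none of the 17 passed. There AAAAAA differed by 12.6 points (exact test, adjusted p = 0.149) and TATAAA by -1.45 points (exact test, adjusted p = 1). In the 356 pairs with no exon in either window, a comparison added after seeing the data, only AAAAAA passed, with TATAAA differing by 4.21 points (exact test, adjusted p = 0.610) and GCCAT by -7.87 points (exact test, adjusted p = 0.149). The GCCAT call was also lost in GC-matched pairs (-5.31 points, exact test, adjusted p = 0.811), with flanks 2000 bp away (-6.30 points, exact test, adjusted p = 0.0670) and in windows of 50 bp on either side (-4.90 points, exact test, adjusted p = 0.120).

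GAGAG, the core of GAGA factor sites, was in 30.3% of summit windows and 24.3% of flank windows (exact test, adjusted p = 0.116), against 21.2% of zone windows. It passed the threshold in windows of 150 bp on either side, with flanks 2000 bp away and in the strongest peaks of replicate 2 alone. In the other settings it did not pass, among them replicate 1 alone, GC-matched pairs and pairs with no exon. In finer windows of 50 bp on either side, 14.7% held GAGAG at the summit. The share was 25.04% at 200 bp towards the TSS, the highest position profiled, and 18.4% at 200 bp away from it. At 1000 bp it was 14.7% towards the TSS and 14.2% away, so the summit itself stood near the distant level. TATAAA was in 20.3% at the summit and 9.46% at 200 bp towards the TSS. GC content also fell at the summit, and its part in these profiles was not tested. CACACA was in 21.5% of summit windows, 17.5% of flank windows (exact test, adjusted p = 0.305) and 13.7% of zone windows. In windows of 150 bp on either side, and in no other setting, it passed against flanks and against promoter summits.

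**Figure D4:**
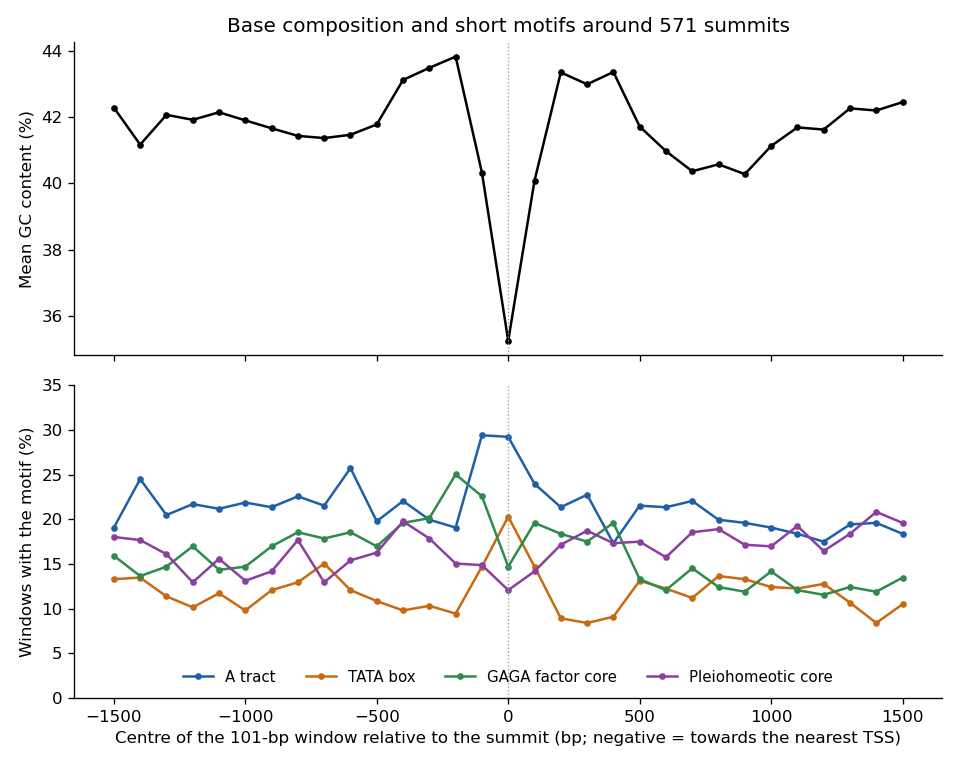
Mean GC content (top) and share of windows (50 bp on either side) holding each of 4 motifs (bottom) by position around the 571 flanking summits, with negative positions towards the nearest TSS. GC content falls to 35.2% at the summit, the TATA box core peaks there at 20.3% and the GAGA factor core at 25.04% lies 200 bp towards the TSS.

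Flanking summits held 2 elements of housekeeping promoters less often than promoter summits did. TATCGATA, the DNA replication-related element, was in 0.525% of flanking windows, against 5.10% at promoter summits (Fisher's exact test, adjusted p = 3.79e-06 over 34 tests). CGATA, the core bound by the insulator protein BEAF-32, was in 22.9%, against 32.5% at promoter summits (exact test, adjusted p = 0.000680). Distance from a TSS defined the classes, so a contrast in promoter elements is in part built in. The flanking shares were near those of zone windows (0.364% for TATCGATA and 21.7% for CGATA) and of distal summits (0.218% and 19.96%). TATCGATA contains CGATA, so the tests overlap. Neither passed among summits whose windows held no exon, a comparison added after seeing the data: there TATCGATA was in 0.619% of flanking windows, against 2.30% at promoter summits (exact test, adjusted p = 0.462), and CGATA in 23.1%, against 26.97% (exact test, adjusted p = 0.602). CGATA also missed the threshold in the stronger part of the set (exact test, adjusted p = 0.0850). None of the 17 motifs differed from distal summits past the threshold of 0.05, and the lowest unadjusted p there was 0.122, for CACACA.

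Flanking summits had a nearest gene in 18 of 20 lists of genes. A summit counted only for its nearest gene, also where it lay inside another gene. Over all 13945 protein-coding genes, 3.61% were the nearest gene of a flanking summit and 9.9% had a promoter summit, and the counts below are to be read beside these shares. Lists differ in the number of TSSs and the length of introns of their genes, which were not compared, and no test of any list was made. In the Dpp pathway, where BMP ligands act through receptors and Smad proteins, 7 of 20 genes had a flanking summit and 6 of these 7 also a promoter summit. They were the type II receptor gene wit (193), the type I receptor gene tkv (81.7), the glypican genes dlp (149) and dally (104), which shape ligand spread, Mad (81.4), which encodes the pathway's Smad, the inhibitory Smad gene Dad (140.4) and shn (171).

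Among genes of the Hedgehog, Wnt and Hippo pathways it was 7 of 28, with only 2 of the 7 also having a promoter summit. The atypical cadherin genes ds and ft had summits 523 and 1376 bp upstream. That of ds had 264 in the optimal set, 128 in replicate 1 and 142 in replicate 2, and that of ft had 122, 77.6 and 51.8. The Wnt receptor genes fz and fz2 had 179 and 139 in the optimal set, ex, an upstream component of Hippo signalling, 167, the Wnt antagonist gene nkd 118 and the ligand gene Wnt5 98.7. All 7 lay upstream of the nearest TSS. The summits of fz2 and Wnt5 were nevertheless in introns or non-coding exons, that of fz2 inside fz2 itself.

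In the insulin and TOR pathway 6 of 22 genes had a flanking summit. Besides Lk6 they were Akt, a central kinase (83.5), sima, which encodes the hypoxia-inducible factor (120.3), REPTOR, a transcription factor restrained by TOR (84.6), and the TOR inhibitor genes scyl (83.4) and chrb (81.6). All 6 were intronic, and all but Lk6 and sima were near the lowest signal of the set, 81.2. In the ecdysone list 6 of 22 had one: the receptor coactivator gene tai (185 in the optimal set, 106 in replicate 1, 82.5 in replicate 2), the nuclear receptor genes Hr39 (158), Eip75B (130.4), ftz-f1 (126) and Hr4 (84.2), and ImpE2 (84.5). Hr39 had 122 in replicate 1 and 28.7 in replicate 2.

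Mutations in corto modify the phenotypes of both Polycomb and Trithorax group mutants. Polycomb group genes with a flanking summit were 4 of 23: ph-d (178), ph-p (156), crol (92.1) and jing (87.0). The ph-d and ph-p genes are neighbouring copies of 1 subunit gene of Polycomb repressive complex 1, and the sources used here do not say how reads matching both were treated. In the list of Trithorax group and chromatin remodelling genes, which also held corto itself, they were 5 of 30, and all 5 also had a promoter summit: Trl (493), tna (164), the chromodomain remodeller gene kis (162), osa (104), whose product belongs to the Brahma remodelling complex, and corto (96.2, 917 bp upstream). BTB zinc finger genes counted 4 of 18, with Trl again, fru, lola and chinmo (90.03). Genes of insulator and promoter factors counted 1 of 18, which was Trl.

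**Figure D5:**
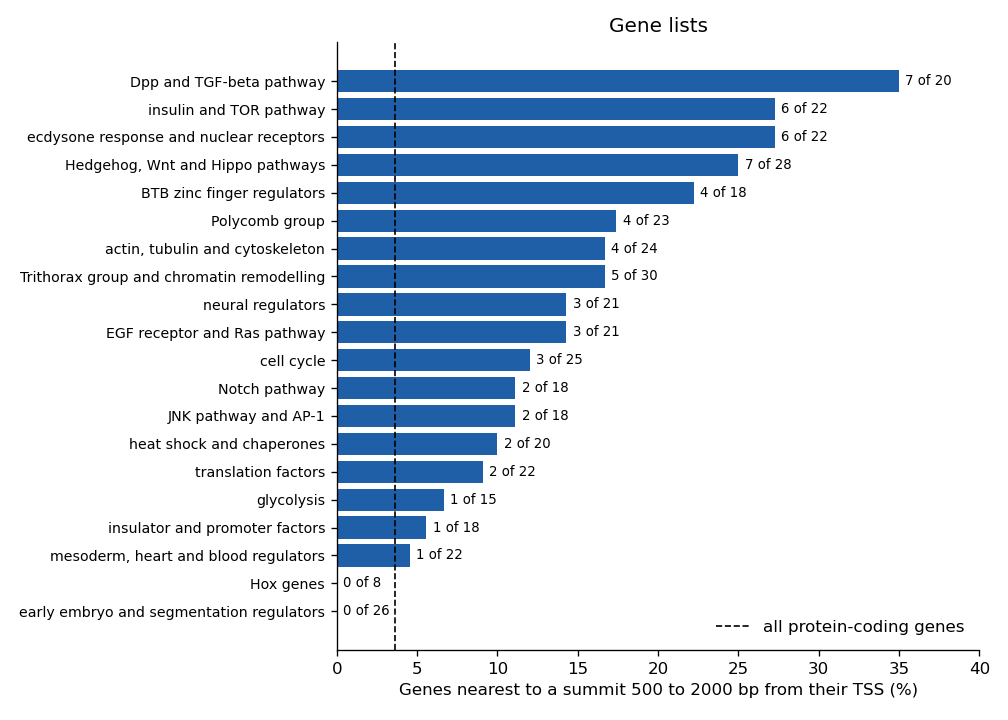
Share of each list's genes that were the nearest gene of a flanking summit, with the counts beside the bars and the share over all protein-coding genes (3.61%) as a dashed line. The Dpp list is highest with 7 of 20, and the Hox and early embryo lists have none.

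None of the 8 Hox genes and none of the 26 early embryo and segmentation genes had a flanking summit, and 3 of these 26 had a promoter summit. Regulators of mesoderm, heart and blood counted 1 of 22, zfh1 (148). That list also held ush, whose intron holds the summit at chr2L:481043 (846), counted for its nearest gene cbt. Neural regulators counted 3 of 21: the neuroblast gene dpn (154), nerfin-1 (113) and the neuronal RNA-binding protein gene elav (100.6). In the Notch pathway they were 2 of 18, neur, which encodes the ubiquitin ligase of Delta, and fng, which encodes a glycosyltransferase acting on Notch (175). The neur summit, 1702 bp downstream, had 282 in the optimal set, 162 in replicate 1 and 122 in replicate 2. EGF receptor and Ras genes counted 3 of 21, the receptor gene Egfr (149.7), the ETS repressor gene aop (117) and the inhibitor gene sty (88.8), and in the JNK and AP-1 list they were 2 of 18, cbt and the Fos gene kay (120.3).

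Among genes of general functions, heat shock and chaperone genes counted 2 of 20, though 10 of these 20 had a promoter summit. The Hsp90 gene Hsp83 had an intronic summit 1007 bp downstream with 254 in the optimal set, 143 in replicate 1 and 117 in replicate 2, and Hsp67Ba had 110.5. Cytoskeletal genes counted 4 of 24: Act5C, tsr, the profilin gene chic (90.2) and Rho1 (88.9). Cell cycle genes counted 3 of 25, Tlk (178), CycE (103) and the Cdc25 phosphatase gene stg (85.2). Translation factors counted 2 of 22, pAbp (117), which encodes the poly(A)-binding protein, and eIF1A (81.5). Of 15 genes of glycolysis 7 had a promoter summit and 1 a flanking summit, the hexokinase gene Hex-A (139).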

How the data were processed

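ChIP-seq of GFP-tagged Corto was deposited for 2 biological replicates of embryos aged 0 to 24 h, with chromatin sonicated to 200 to 800 bp, per the labels. The authors deposited narrowPeak lists on dm6. Per the text notes deposited with them, lists of 30000 entries were called for each replicate and for pooled reads, with a control, and the optimal set was derived from them by the irreproducible discovery rate. The aligner, peak caller and thresholds are not given in the sources at hand here. The deposited signal per peak is the narrowPeak signal column, from the authors' peak caller, on a scale not given there. Lists on dm3 were not used.

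The summit was the deposited start plus the deposited offset, made 1-based. Genes and TSSs (13945 and 19607, protein-coding, 6 arms) came from Ensembl release 115 (BDGP6.54), and bases were read from NCBI's copy of that assembly. A summit in several places counted once, with 5′ UTR before coding sequence before 3′ UTR before intron or non-coding exon. Shares were compared with two-sided Fisher's exact tests, summit and flank windows with exact McNemar tests, with Benjamini-Hochberg adjustment in 3 families (16, 17 and 34 tests) and a threshold of 0.05. Python 3.11.15, numpy 2.4.6, scipy 1.17.1, pandas 2.3.3 and matplotlib 3.10.9 were used, and the calculations were tested on simulated data.

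Flanking summits, motifs and gene lists were chosen with earlier results of these data known. Of 431 list entries 426 matched an annotated gene. Genes named are those of the 20 strongest summits after merging within 1000 bp, the strongest in each place, genes with 3 or more, the list genes with a flanking summit, and the 2 summits nearest each edge on either side. Alternatives were each replicate alone, the stronger part of the set, merged summits, other zones, TSSs, distances, windows and flanks.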

Additional observations from a re-analysis of the deposited data

How the results depend on the processing

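Leaving out a replicate meant taking the strongest 2644 peaks of the other one. With either replicate left out, the difference from distal summits in signal above the median was -2.40 to -1.69 points, against 1.10 points in the optimal set, that in neighbouring summits 6.42 to 10.7 points, that in non-coding starts -0.13 to 0.72 points, that in GC class against promoter summits 4.28 to 4.55 points and against distal summits -0.22 to 2.31 points, and that in the X share 2.06 to 4.80 points. In the part of the set above its median signal there were 279 flanking summits. There the differences were -8.63 points for intergenic summits (exact test, adjusted p = 0.0507), -0.0296 points for the match in both replicates and 1.78 points for strong rank in both, each of these 2 against promoter summits, and 7.37 and -0.18 points for GC class against promoter and distal summits, with 1 motif past the threshold against promoter summits. With summits within 500 bp merged, GC class differed from promoter summits by 6.07 points. With the TSSs of all annotated genes, the differences from distal summits were -2.69 points for introns or non-coding exons, -2.30 points for intergenic summits and 8.73 points for neighbours (exact test, adjusted p = 0.00404), and GC class differed from promoter summits by 5.90 points. In a zone of 750 to 2000 bp they were -5.80 points for intergenic summits, -0.19 points for signal and -1.06 points for GC class, all against distal summits, and 5.13 points for GC class against promoter summits, with 4 motifs past the threshold against these. In a zone of 500 to 1500 bp GC class differed from promoter summits by 7.20 points. The neighbour difference was 0.64 points within 1000 bp and 0.14 points within 5000 bp. Non-coding starts within 250 bp differed by -0.48 points from promoter and -0.23 points from distal summits, and within 1000 bp by 4.31 points from promoter summits. Windows of 150 bp on either side gave 5 motifs past the threshold against flanks and 6 against promoter summits. Pairs matched on GC content gave 0 of 17 motifs against flanks by the McNemar test (TATAAA -1.45 points; 3 at an unadjusted p below 0.05), pairs with no exon 1, and windows with no exon 0 against promoter summits (2 at an unadjusted p below 0.05). The last 2 were added after seeing the data. The cause was not tested for any of these. The difference in side from promoter summits held in all 7 alternatives, from -43.2 to -35.8 points.

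The replicate match without replicate 1 or 2 (it needs both) and non-coding starts under the TSSs of all genes were not run. No paired analysis was possible because there was only 1 group. Depth is unknown, so a weak site cannot be told from one lost to shallow sequencing, and 2 replicates limit every ranking.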

Other observations

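Summits in the zone kept their share down the pooled list of both replicates while their places changed. That share was close throughout to the 21.6% of the 6 arms that the zone spans, so it is no result about binding. In steps of 3000 entries by signal, the zone held 22.0% of the first step and 24.2% of the last, whereas promoter summits made up 43.5% of the first step and 13.0% of the last. Of the zone's summits 0.455% were in coding sequence among the strongest 3000 entries and 12.1% among the weakest 3000, against 32.6% of zone positions. Introns or non-coding exons held 73.0% of them among the strongest and 46.6% among the weakest. The list holds background as well as peaks, per the notes deposited with it.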
